A study of Mus musculus with 18 samples.

Results

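Epithelial cells of the intestinal crypt secrete chloride, and water follows. Chloride enters the cell across its basolateral side and leaves through channels in the apical membrane, while potassium channels on the basolateral side carry potassium out and so keep up the electrical force that drives the anion across. Crypts are known as the main site of this secretion, and the apical channel Cftr is the channel that is lost in cystic fibrosis. The genes described here are the 7 listed members of this machinery, which are the anion channel genes Cftr, Ano1, Best2 and Clcn2 and the potassium channel genes Kcnq1, Kcne3 and Kcnn4. They were chosen by gene symbol out of 43346 genes in the count table, each symbol matched 1 gene, and all 7 were among the 26717 genes tested.

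RNA was sequenced from EPCAM-positive, GFP-positive cells that were sorted from crypts of the small intestine (SI) and the large intestine (LI) of untreated C57BL/6 mice with the genotype Lgr5_eGFP_Iris_creERT2, at the age of 8 to 20 weeks by the labels. All groups carry this allele, in which the Lgr5 locus drives GFP and a tamoxifen-inducible Cre, so that the GFP signal stands for the expression of the stem cell gene Lgr5. High, medium and low GFP stand for centre, border and row>3 cells of the crypt, and the 6 groups of site and level hold 3 replicates each, 18 libraries in all. The study describes the replicates as biological replicates from different mice, but neither labels nor methods say which mouse stands behind a number.

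The libraries held between 8312093 and 31940965 counts on genes, with a median of 21934852. Mean Lgr5 levels were 3959, 1265 and 159 normalised counts (counts divided by the size factor of the library) in centre, border and row>3 cells of SI (4722, 1819 and 225 in replicates 1 and 2) and 2359, 1451 and 287 in LI, which follows the gates. The 3 SI replicate 3 libraries stood apart from the other SI libraries. LI genes, chosen without these libraries by a level of 20 CPM or more in LI (CPM being counts relative to the total of a library) and 20 times the level of SI replicates 1 and 2, numbered 45, 36 and 32 at centre, border and row>3. They reached a median of 64.3%, 87.2% and 79.7% of their LI level in SI replicate 3. In SI replicates 1 and 2, where the choice itself required a low level, the medians were 0.892%, 1.07% and 0.999%. SI genes, chosen in the same way (34, 33 and 50 genes), were in SI replicate 3 at a median of 26.7%, 12.8% and 24.6% of their level in SI replicates 1 and 2. Calls of the 7 genes are therefore also given without these 3 libraries. Genes of the Y chromosome had at least 542 counts in every replicate 2 library of both sites and at most 4 in the others. In sorted pools of cells, fewer cells of a type and less RNA per cell cannot be told apart.

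Normalised read counts showed 3 patterns among the members. Cftr, Kcnq1 and Kcne3 were high in centre cells and fell to row>3 cells of SI. Ano1 went the other way, and Best2 was close to absent from SI apart from replicate 3. Clcn2 and Kcnn4 differed least between the groups.

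**Figure D1:**
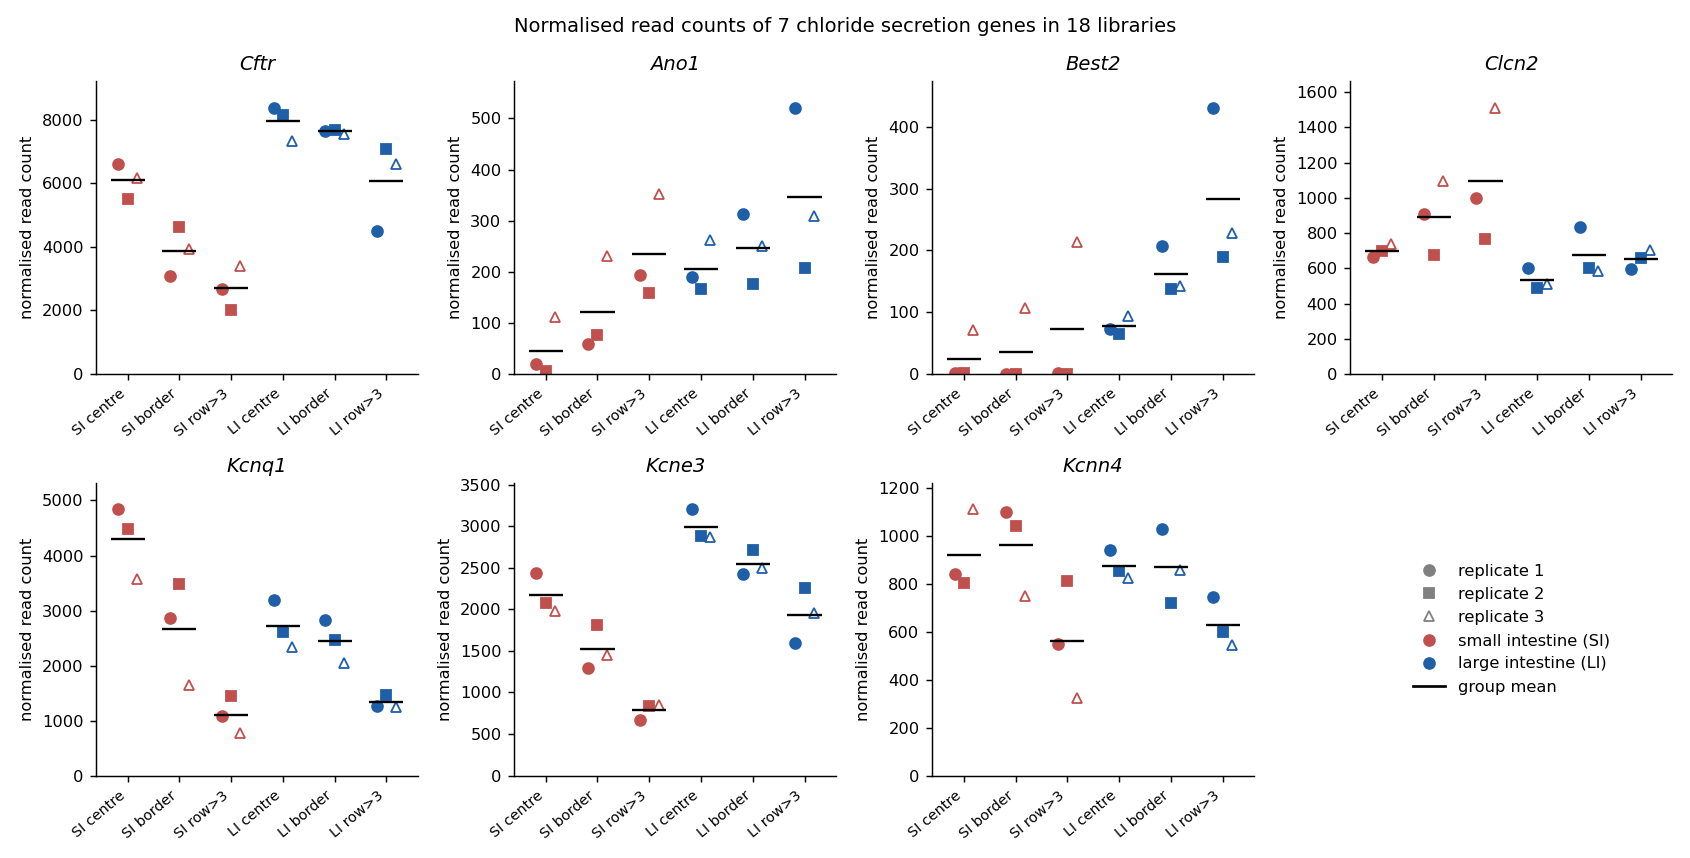
Normalised read counts (vertical axes, linear from 0) of each of the 7 genes in the 18 libraries, by group, with SI in red, LI in blue, a symbol for each replicate number and a black line for the group mean. Cftr, Kcnq1 and Kcne3 step down from SI centre to SI row>3, and for Ano1 and Best2 the open triangle of SI replicate 3 lies above both other SI libraries at every level.

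Cftr lies at chr6:18170687-18322768 on the plus strand of GRCm38 and encodes the cAMP-regulated apical chloride and bicarbonate channel. Its normalised counts in replicates 1, 2 and 3 were 6607, 5509.7 and 6174 in SI centre cells, 3079, 4621 and 3923 in SI border cells and 2681, 1999 and 3400.0 in SI row>3 cells. In LI the counts were 8379, 8156 and 7343 in centre, 7644, 7687 and 7560.3 in border and 4513, 7078 and 6612 in row>3 cells. Every SI centre library was above every SI border and row>3 library, and at each level every LI library was above every SI library.

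Cftr fell in SI row>3 against centre cells by 1.17 on the log2 scale (SE 0.19), which is 2.25-fold lower, with an adjusted p of 0.000372 in edgeR. Of all genes tested, 13.2% were called in this comparison, and 4 of the 7 members were. The call held in all 15 alternative settings, with adjusted p between 1.04e-06 and 0.00613, and without SI replicate 3 the fall was -1.37 (SE 0.21). In LI, row>3 against centre differed by -0.38 (SE 0.19, 95% interval -0.80 to 0.04, edgeR adjusted p = 0.737), although each LI row>3 library was below each LI centre library.

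The sites differed in Cftr at the border and in row>3 cells. SI was lower than LI by 1.04 on the log2 scale in border cells (SE 0.19, 2.05-fold, edgeR adjusted p = 0.00644) and by 1.23 in row>3 cells (SE 0.20, 2.34-fold, edgeR adjusted p = 0.000523). In centre cells the difference was -0.44 (SE 0.19) with an edgeR adjusted p of 0.281. The border call was lost without SI border replicate 1, at an adjusted p of 0.0558. With SI replicate 3 left out the Cftr differences were -1.02 in border and -1.39 in row>3 cells, both called.

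The Cftr gene has 250 bases upstream of its RefSeq start at chr6:18170437-18170686, plus strand, GRCm38.p6. They are shown with those of Kcne3 at chr7:100178433-100178682, plus strand, the second of 2 windows for this gene, because both genes fell together from centre to row>3 in SI. Capitals mark each GC box, GGGCGG or its reverse complement CCGCCC, and neighbouring boxes can share bases.

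Cftr: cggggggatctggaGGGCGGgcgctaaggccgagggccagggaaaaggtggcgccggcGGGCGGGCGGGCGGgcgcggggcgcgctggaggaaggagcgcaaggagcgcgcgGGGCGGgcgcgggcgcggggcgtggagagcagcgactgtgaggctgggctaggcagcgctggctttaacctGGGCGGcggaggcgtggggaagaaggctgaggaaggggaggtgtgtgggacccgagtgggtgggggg

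Kcne3: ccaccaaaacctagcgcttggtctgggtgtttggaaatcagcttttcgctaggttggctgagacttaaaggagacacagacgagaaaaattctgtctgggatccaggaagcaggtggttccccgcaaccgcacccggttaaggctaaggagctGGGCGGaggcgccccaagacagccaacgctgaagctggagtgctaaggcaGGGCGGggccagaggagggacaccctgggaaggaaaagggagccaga

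The Cftr window held 6 GC boxes and the Kcne3 window 2, while 32.7% of the 32851 promoter windows of this length in the RefSeq table held at least 1 on either strand. Neither window held CCAAT (33.8% of windows), the cAMP response element TGACGNCA (2.75%) or the TCF/LEF letters CTTTGAT (3.21%) on either strand. The other Kcne3 window, at chr7:100176420-100176669, held 0 GC boxes and 2 CCAAT boxes. RefSeq windows were matched for 5 of the 7 members, namely Cftr, Ano1, Clcn2, Kcne3 and Kcnn4. Ano1, which rose where the other 2 genes fell, had 4 GC boxes in its window at chr7:144738574-144738823 on the minus strand. This window and the Kcne3 window shown lie within the gene positions given below for Ano1 and Kcne3, whose starts differ from these RefSeq starts.

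Ano1 lies at chr7:144588549-144751974 on the minus strand and encodes the calcium-activated chloride channel TMEM16A. Its normalised counts in SI were 18.6, 6.45 and 111 in centre, 59.0, 76.5 and 230.4 in border and 194, 158 and 351 in row>3 cells. LI counts were 191, 165 and 263 in centre, 313, 176 and 251 in border and 521, 207 and 308 in row>3 cells. Each SI row>3 library was above each SI centre library, SI replicate 3 was the highest SI library at every level, and the LI levels overlapped each other.

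Ano1 rose in SI row>3 against centre cells by 2.36 on the log2 scale (SE 0.72), which is 5.13-fold, with an edgeR adjusted p of 0.0443. Without SI replicate 3 the rise was 3.77 (SE 0.56, edgeR adjusted p = 4.04e-05), and with replicate number as a block within site it was 2.59 (SE 0.36, edgeR adjusted p = 2.39e-05). The call was lost when any 1 of SI row>3 replicates 1 or 3 or SI centre replicates 1 or 2 was left out, with adjusted p between 0.0763 and 0.167, and also without the filter on low counts (0.0676), in the legacy fit (0.0980) and in a fit of the compared groups alone (0.2004). In LI the same contrast was 0.74 (SE 0.63, 95% interval -0.64 to 2.11, edgeR adjusted p = 0.964).

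SI centre cells had less Ano1 than LI centre cells in every library, by 2.25 on the log2 scale (SE 0.72), but with an edgeR adjusted p of 0.137. Without SI replicate 3, whose centre library reached 53.8% of the LI mean against 6.08% for replicates 1 and 2, the difference was -4.01 (SE 0.54, edgeR adjusted p = 1.14e-05). In border cells it was then -1.87 (SE 0.45, edgeR adjusted p = 0.00812).

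Ano1 is also known as a marker of the interstitial cells of Cajal in the gut wall. The 5 markers of these cells and of smooth muscle summed to 38.0 to 91.9 CPM in SI centre and 129.9 to 137 CPM in SI row>3 libraries, and nearly all of this was Kit, which crypt secretory cells also express. Etv1, Des, Myh11 and Actg2 were each at a group mean of at most 1.26 CPM.

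The 3 genes whose 6 group means of log2 CPM followed Ano1 most closely, among 11046 genes of at least 5 CPM in 1 group, were Fut2, a fucosyltransferase gene, Galntl6, a gene of the family that starts mucin-type O-glycans, and Pck1, the gene of cytosolic phosphoenolpyruvate carboxykinase. Their mean absolute distance to Ano1 after centring was 0.08, 0.16 and 0.17 log2 units. Fut2, for example, had mean levels of 8.78, 25.4 and 46.9 CPM in SI centre, border and row>3 cells and of 44.5, 49.3 and 80.3 CPM in LI. In group means without SI replicate 3, Fut2 remained the nearest gene at 0.11 log2 units, Galntl6 was the third at 0.19, and Pck1 was at rank 17.

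Best2 lies at chr8:85007202-85014531 on the minus strand and encodes a bestrophin anion channel known from goblet cells of the mouse colon, where it carries bicarbonate. In SI its normalised counts were 1.62, 0.921 and 71.8 in centre, 0, 0 and 106 in border and 2.05, 0 and 214 in row>3 cells. LI counts were 72.9, 64.9 and 94.1 in centre, 206, 137 and 142 in border and 431, 189 and 228 in row>3 cells. All Best2 reads of SI replicates 1 and 2 came to 6 raw counts over 6 libraries, whereas SI replicate 3 alone held 315 and the 9 LI libraries 1756.

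Against SI replicates 1 and 2 pooled, Best2 in LI was 62.6-fold higher in centre cells (95% interval of the count ratio 21.2 to 305) and 265-fold higher in row>3 cells (90.4 to 1287). Both ratios rest on 3 counts in SI, and the intervals cover counting error only. In border cells, where SI replicates 1 and 2 had 0 counts, LI was at least 55.5-fold higher by the lower limit of the 95% interval, and the ratio against 3 counts over both libraries was 68.5. SI replicate 3 reached 92.9%, 65.6% and 75.6% of the LI mean at centre, border and row>3.

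With all libraries, the edgeR difference of SI and LI in Best2 was not called at any level. It was -1.73 in centre cells (SE 1.51, 95% interval -5.03 to 1.57, adjusted p = 0.694). It was called at all 3 levels without SI replicate 3, with edgeR adjusted p of 4.66e-05, 1.22e-05 and 9.38e-09 from centre to row>3. The direction of Best2 between SI row>3 and centre, 1.27 (SE 1.62, edgeR adjusted p = 0.766), rests on SI replicate 3. It was called with the replicate block within site, at 1.52 (SE 0.49, edgeR adjusted p = 0.0317), and without SI replicate 3 both groups hold 3 counts, which gives no direction.

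Within LI, each Best2 count in row>3 and border cells was above each count in centre cells. The rise from centre to row>3 was 1.86 on the log2 scale (SE 1.26, 3.64-fold) with an edgeR adjusted p of 0.898. It was 1.85 (SE 0.31, edgeR adjusted p = 0.00141) without SI replicate 3, whose spread enters the shared estimate, and 1.78 (SE 0.26, edgeR adjusted p = 0.00123) with the replicate block within site.

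Of the 3 markers of deep crypt secretory cells, Reg4 followed the same libraries as Best2. Agr2, which is also a goblet marker, did so in centre cells alone. Reg4 had mean normalised counts of 580, 1226 and 1666 in SI replicates 1 and 2 at centre, border and row>3, against 25348, 23446 and 51424 in SI replicate 3 and 31687, 34223 and 55148 on average in LI. Agr2 in row>3 cells averaged 44962 in SI replicates 1 and 2 and 19005 in LI. In border cells these averages were 9370 and 10191. In centre cells Agr2 averaged 1746 in SI replicates 1 and 2 and 10475 in LI, with 7254 in SI replicate 3. The third marker, Kit, lay between 2039 and 2790 in the row>3 libraries of both sites. In centre cells Kit averaged 1006 in SI replicates 1 and 2 and 1606 in LI, with 1860 in SI replicate 3. In border cells the order was reversed, with averages of 2416 and 1679, and 1565 in SI replicate 3. The part of these cells in the Best2 level was not tested.

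By the measure of likeness used for Ano1 the nearest genes to Best2 were Ttc9, Mark1 and Muc16, at 0.36, 0.40 and 0.41 log2 units. The distances were larger than those to Ano1. Of the SI counts behind the Best2 profile SI replicate 3 held 315, and SI replicates 1 and 2 held 6. Mark1, a kinase gene, had mean levels of 6.17 CPM in SI row>3 and 23.5 CPM in LI row>3 cells. Muc16, a membrane mucin gene, had 2.95 CPM in SI row>3 and 6.30 CPM in LI row>3 cells. Without SI replicate 3 the SI means of Best2 rest on 3, 0 and 3 counts, and no likeness is given.

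Clcn2 lies at chr16:20702964-20717746 on the minus strand and encodes a chloride channel that opens on hyperpolarisation of the membrane and has been placed at the basolateral side of the colon surface. Its normalised counts in SI were 666, 696 and 740.5 in centre, 907, 677 and 1096 in border and 999, 769 and 1513 in row>3 cells. In LI they were 603, 485 and 510.4 in centre, 834, 604 and 582 in border and 595, 657 and 705 in row>3 cells. Each SI row>3 library was above each SI centre library and above each LI row>3 library, with replicate 3 the highest.

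Clcn2 differed by 0.64 between SI row>3 and centre (SE 0.23, 95% interval 0.15 to 1.14) with an edgeR adjusted p of 0.0643. With the replicate block within site it was called at 0.59 (SE 0.16, edgeR adjusted p = 0.00944), and without SI replicate 3 it was 0.38 and not called. Of the 15 alternative settings 4 called it. In LI row>3 against centre it was 0.30 (SE 0.23, edgeR adjusted p = 0.924), and in centre cells SI against LI was 0.34 (SE 0.23, edgeR adjusted p = 0.551). Exons of Polr2h on the opposite strand share 1.36% of the Clcn2 exon length, and that gene reached a group mean of at most 11.2 CPM.

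Kcnq1 and Kcne3 encode the pore and the beta subunit of the basolateral potassium channel that serves secretion driven by cAMP, and Kcne3 keeps this channel open. Kcnq1 lies at chr7:143106362-143427042 and Kcne3 at chr7:100176502-100184869, both on the plus strand. Both fell from centre to row>3 in SI, and these were the members with the lowest adjusted p in that comparison.

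In SI, Kcnq1 had normalised counts of 4838, 4490.3 and 3565 in centre, 2857, 3474 and 1644 in border and 1093, 1447 and 777 in row>3 cells. In LI it had 3187, 2604 and 2342 in centre, 2823, 2465 and 2042 in border and 1273, 1474 and 1254 in row>3 cells. Centre, border and row>3 libraries of SI did not overlap, SI centre was above LI centre in every library, and row>3 libraries of the 2 sites overlapped.

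Kcnq1 fell in SI row>3 cells by 1.95 against centre (SE 0.23, 3.87-fold, edgeR adjusted p = 2.65e-05) and by 1.25 against border (SE 0.23, 2.37-fold, edgeR adjusted p = 0.0114). In SI row>3 against border 2 of the 7 members were called, Kcnq1 and Kcne3, beside 1.61% of all genes. Both of these border calls were lost without SI row>3 replicate 1 or without SI border replicate 2, with adjusted p between 0.0921 and 0.128, and in a fit of the compared groups alone, at 0.174 and 0.141. Leaving out SI replicate 3 gave -1.87 and -1.29 for Kcnq1, both called. The first contrast held in all 15 alternatives, with adjusted p of at most 0.0015.

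In LI, Kcnq1 differed between row>3 and centre by -1.01 (SE 0.22, 2.02-fold, 95% interval -1.50 to -0.52) with an edgeR adjusted p of 0.191, where 0.0187% of all genes were called. It was called with the replicate block within site (-1.01, SE 0.13, edgeR adjusted p = 0.000472) and without SI replicate 3 (-1.02, SE 0.15, edgeR adjusted p = 0.000675). SI centre cells had 1.53-fold more Kcnq1 than LI centre cells, 0.61 on the log2 scale (SE 0.22, edgeR adjusted p = 0.175), and 0.77 without SI replicate 3 (SE 0.16, edgeR adjusted p = 0.00227). Kcnq1ot1, an RNA on the opposite strand, shares 2.96% of the Kcnq1 exon length and reached a group mean of at most 4.94 CPM.

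Normalised counts of Kcne3 came to 2441, 2081 and 1983 in SI centre, 1292, 1812 and 1449.6 in SI border and 668, 838 and 846 in SI row>3 cells. The LI counts were 3202, 2879 and 2873 in centre, 2430.3, 2707 and 2494 in border and 1598, 2253 and 1962 in row>3 cells. The 3 levels did not overlap in either site, and every LI library was above every SI library of its level.

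Kcne3 fell in SI row>3 cells by 1.46 against centre (SE 0.17, 2.76-fold, edgeR adjusted p = 2.52e-05) and by 0.95 against border (SE 0.17, 1.93-fold, edgeR adjusted p = 0.0114). In LI it differed by -0.62 between row>3 and centre (SE 0.17, edgeR adjusted p = 0.334), and was called with the replicate block within site (-0.63, SE 0.14, edgeR adjusted p = 0.018) and without SI replicate 3 (-0.63, SE 0.15, edgeR adjusted p = 0.0345). SI was lower than LI by 0.80 in border (SE 0.17, 1.75-fold, edgeR adjusted p = 0.0138) and by 1.37 in row>3 cells (SE 0.17, 2.58-fold, edgeR adjusted p = 3.65e-05). In centre cells the difference of -0.52 (SE 0.17) had an edgeR adjusted p of 0.116. Leaving out SI replicate 3 gave Kcne3 falls of -1.58 and -1.02 within SI and site differences of -0.74 and -1.37 in border and row>3 cells, all called. The border call of Kcne3 was lost without SI border replicate 1 or LI border replicates 2 or 3, with adjusted p between 0.0624 and 0.0935, and in a fit of the compared groups alone, at 0.0623.

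Kcnn4 lies at chr7:24370263-24386690 on the plus strand and encodes the calcium-activated potassium channel KCa3.1. In SI its normalised counts were 844, 807 and 1113 in centre, 1100.3, 1043 and 749 in border and 549, 813 and 325 in row>3 cells. In LI they were 942, 856 and 826 in centre, 1031, 719.9 and 859 in border and 748, 599.8 and 545 in row>3 cells. The SI groups overlapped, while each LI row>3 library was below each LI centre library.

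Kcnn4 differed by -0.71 between SI row>3 and centre (SE 0.24, 95% interval -1.23 to -0.18) with an edgeR adjusted p of 0.0561. It was called with the replicate block within site, at -0.73 (SE 0.22, edgeR adjusted p = 0.0181), and was -0.27 and not called without SI replicate 3, whose row>3 library was the lowest of all 18. Of the 15 alternative settings 6 called this Kcnn4 difference. The LI value was -0.47 (SE 0.24, edgeR adjusted p = 0.745), and centre cells of SI and LI differed by 0.02 (SE 0.24, 95% interval -0.50 to 0.54, edgeR adjusted p = 1).

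**Figure D2:**
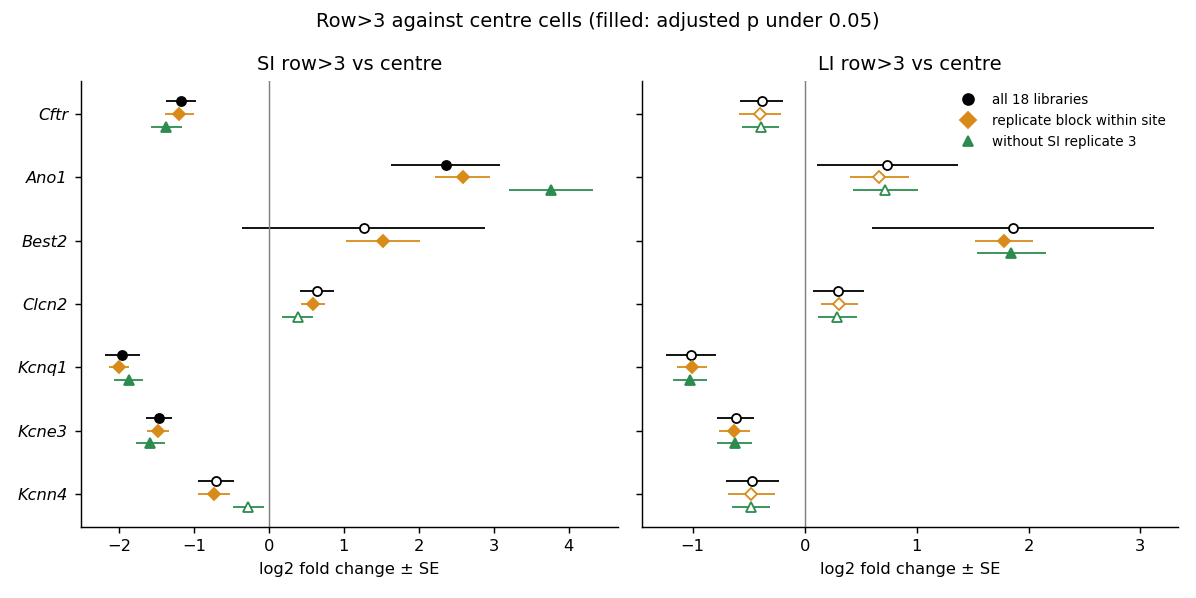
Log2 fold change of row>3 against centre cells (horizontal axes, error bars 1 SE) in SI and LI for all 18 libraries (circles), with a replicate block within site (diamonds) and without SI replicate 3 (triangles), filled where the adjusted p is under 0.05. Kcnq1, Kcne3, Cftr and Kcnn4 lie left of 0 in both sites, and Best2 without SI replicate 3 is not drawn for SI, where 3 counts or fewer remain per group.

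The order of the group means differed between members. Cftr was highest in LI centre and LI border cells, which overlapped each other and lay above the 4 other groups. Kcnq1 was highest in SI centre cells, apart from the next group, LI centre, while Kcne3 was highest in LI centre cells, apart from the next group, LI border. For Ano1 LI row>3 cells came first and SI centre cells last, and every pair of neighbours overlapped. Best2 was highest in LI row>3 and LI border cells, and its SI groups have no order without replicate 3, with 0 to 3 counts in each library. For Clcn2 and Kcnn4 every pair of neighbours in the order overlapped.

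Levels can be compared between genes only per length, here as CPM per kilobase (kb) of exons. Kcne3 was the most abundant member by this measure in all 6 groups, with 84.9 ± 3.33 CPM per kb in LI centre cells, and 59.4 ± 6.26 in SI centre cells (SD, n = 3). Cftr had 51.9 ± 2.90 and Kcnq1 33.5 ± 4.57 in LI centre cells, against 38.3 ± 3.50 and 51.1 ± 7.44 in SI centre cells. Kcnn4 and Clcn2 stayed between 4.48 and 9.10 CPM per kb on average in all 6 groups, and Ano1 had at most 2.80. With SI replicate 3 left out Kcne3 was still the most abundant in SI, with 61.6, 41.7 and 20.5 CPM per kb from centre to row>3, against 55.3 and 36.9 in centre and border cells for Kcnq1 and 37.8, 23.7 and 14.6 for Cftr.

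The ratio of Kcne3 to Kcnq1 per kb was formed after the values had been seen, and is given as a description. It was 1.16, 1.07 and 1.28 in SI centre libraries and 2.31, 2.54 and 2.82 in LI centre libraries. In row>3 cells it was 1.41, 1.33 and 2.504 in SI and 2.89, 3.52 and 3.60 in LI. The ratio was thus lower in each SI than in each LI library at centre and at row>3, and SI replicate 3 was the highest SI library at every level. In border cells SI replicate 3 at 2.03 overlapped LI replicate 1 at 1.98.

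**Figure D3:**
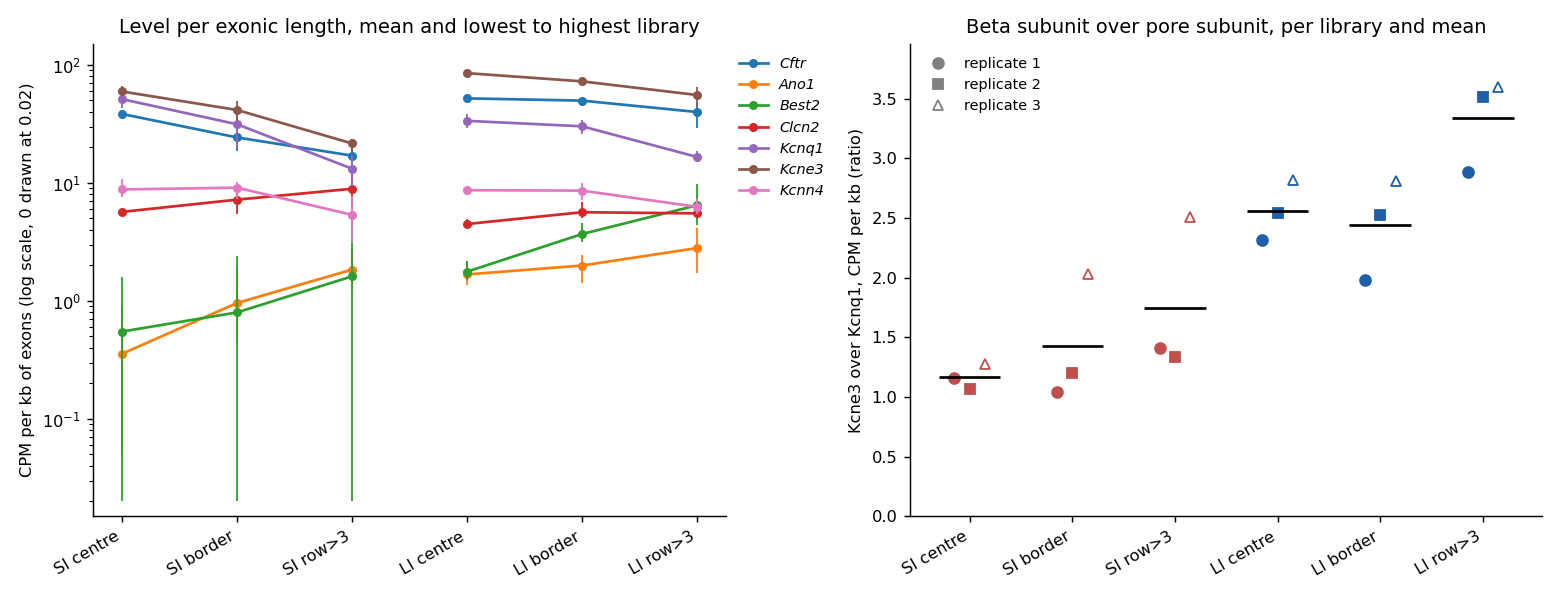
Left, mean CPM per kb of exons (log axis) of each member in the 6 groups, with bars from the lowest to the highest library and 0 drawn at 0.02. Right, the ratio of Kcne3 to Kcnq1 per kb (linear axis from 0) in each library with the group mean as a line. LI centre libraries lie between 2.31 and 2.82, and SI centre libraries between 1.07 and 1.28.

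Between neighbouring levels few members were called. In SI border against centre none of the 7 was called by edgeR, where 0.0112% of all genes were. DESeq2 called 0 of them, beside 209 of 16775 genes. An unadjusted edgeR p under 0.05 was found for 3 members, beside 2399 of the 26717 genes tested. In LI border against centre and LI row>3 against border 0 members were called by edgeR and 0 by DESeq2, and 0% of all genes were called in each. There 0 and 2 members had an unadjusted edgeR p under 0.05, beside 368 and 994 of the 26717 genes. In LI row>3 against centre 0 were called by edgeR, and 2 had an unadjusted edgeR p under 0.05, beside 1860 of the 26717 genes. DESeq2 called 2, Kcnq1 and Kcne3, beside 0.707% of the genes to which it gave an adjusted p.

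With the replicate block within site, which is fitted because equal numbers deviate together within a site, more members were called. All 7 were called in SI row>3 against centre, where 22.8% of all genes were and where the Best2 call rests on SI replicate 3, with 77 counts in centre and 137 in row>3, 3 in SI row>3 against border (9.78%) and Kcnq1 alone in SI border against centre (-0.76, SE 0.13, edgeR adjusted p = 0.00602, 2.32%). In LI 3 members, Best2, Kcnq1 and Kcne3, were called in row>3 against centre (2.59%) and Kcnq1 in row>3 against border (-0.85, SE 0.13, edgeR adjusted p = 0.0278, 0.0674%).

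Without SI replicate 3, 4 members were called in SI row>3 against centre, Cftr, Ano1, Kcnq1 and Kcne3, beside 17.1% of all genes. In SI row>3 against border 3 were called (7.22%), among them Cftr at -0.69 (SE 0.21, edgeR adjusted p = 0.0489). In LI the calls were Best2, Kcnq1 and Kcne3 in row>3 against centre (1.9%) and Kcnq1 in row>3 against border (-0.87, SE 0.15, edgeR adjusted p = 0.0206, 0.0802%).

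Between the sites, 0 members were called in centre cells by edgeR, where 1.99% of all genes were. An unadjusted edgeR p under 0.05 was found for 4 members, beside 3883 of the 26717 genes. DESeq2 called 1, Ano1, beside 7.88% of its genes. With the replicate block over all libraries 3 were called in centre cells, Ano1, Kcnq1 and Kcne3, beside 5.61% of all genes. In border cells 2 were called, Cftr and Kcne3, beside 1.76% of all genes, and the same 2 in row>3 cells, beside 4.09%. Without SI replicate 3, 3 members were called in centre cells (Ano1, Best2 and Kcnq1, 10.9%), 4 in border cells (Cftr, Ano1, Best2 and Kcne3, 8.11%) and 3 in row>3 cells (Cftr, Best2 and Kcne3, 12.2%). Kcnq1 was the called member that was higher in SI, and the others were lower there.

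**Figure D4:**
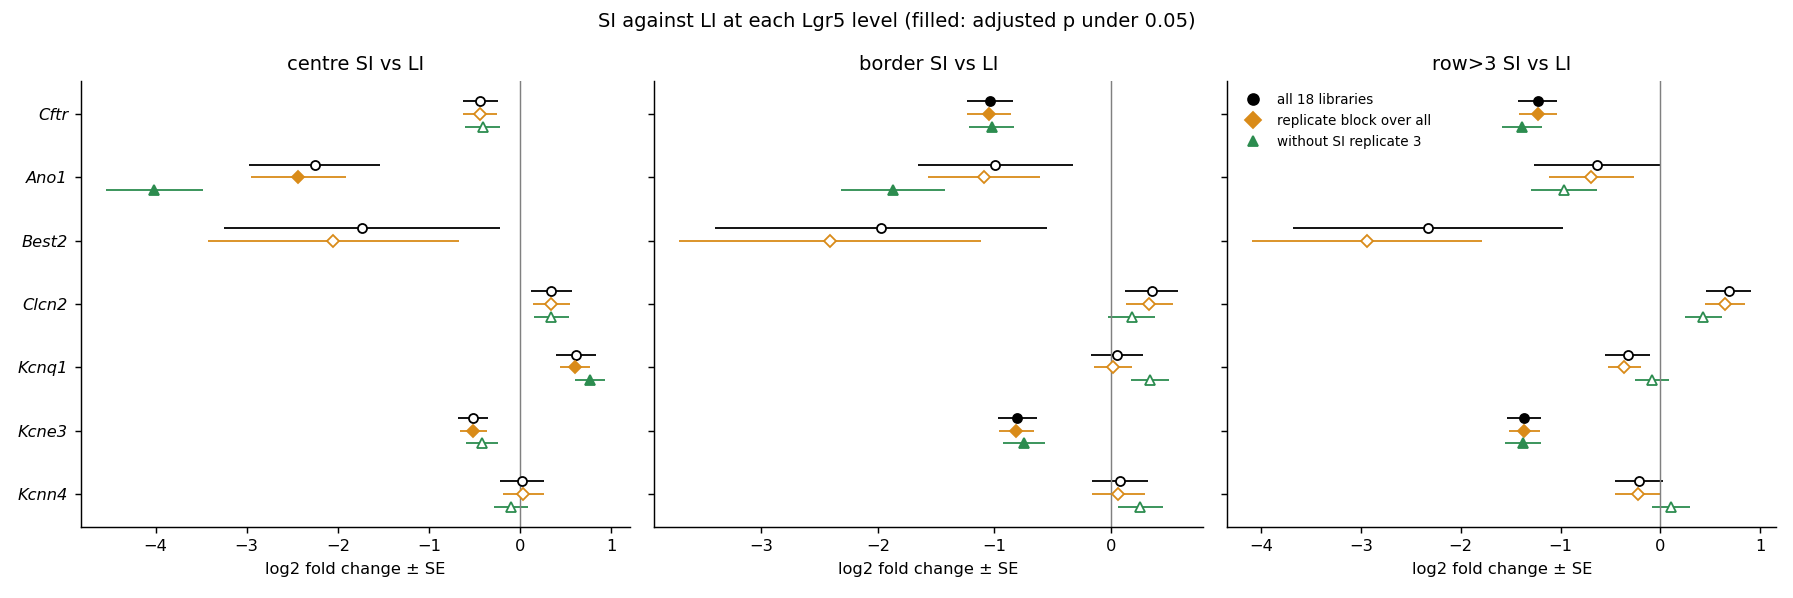
Log2 fold change of SI against LI (horizontal axes, error bars 1 SE) at centre, border and row>3 for all 18 libraries (circles), with a replicate block over all libraries (diamonds) and without SI replicate 3 (triangles), filled where the adjusted p is under 0.05. Cftr and Kcne3 lie left of 0 at all levels and reach -1.23 and -1.37 in row>3 cells, and Best2 without SI replicate 3 is not drawn because SI keeps 3 counts or fewer per group.

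Whether the step from centre to row>3 differs between the sites was tested as a contrast of the contrasts. The edgeR test called 0 members and 0% of all genes, with 3 members at an unadjusted p under 0.05, beside 1800 of the 26717 genes. DESeq2 called 1 member, Kcne3, beside 1.01% of its genes. All 7 members had the same sign in both sites, 4 below and 3 above 0, where the sign of Best2 in SI rests on replicate 3. In LI the 95% intervals of Cftr, Ano1, Best2, Clcn2 and Kcnn4 included 0. The share of all genes with equal signs was not computed. Kcne3 differed by -0.85 between the sites (SE 0.24, edgeR adjusted p = 0.269), Kcnq1 by -0.94 (SE 0.32, edgeR adjusted p = 0.441) and Cftr by -0.79 (SE 0.27, edgeR adjusted p = 0.47).

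With the replicate block within site 3 members were called in this contrast (2.32% of all genes), namely Kcnq1 at -0.99 (SE 0.18, edgeR adjusted p = 0.0106), Kcne3 at -0.86 (SE 0.20, edgeR adjusted p = 0.0293) and Ano1 at 1.92 (SE 0.46, edgeR adjusted p = 0.0329). Without SI replicate 3 the same 3 and Cftr were called (3.27%), with Cftr at -0.97 (SE 0.27, edgeR adjusted p = 0.0471) and Kcnq1 at an adjusted p of 0.04995, just under the threshold. In the 2 contrasts that involve the border, 0 members and 0% of all genes were called by edgeR and 0 members by DESeq2. In each, 1 member had an unadjusted edgeR p under 0.05, beside 707 (border against centre) and 757 (row>3 against border) of the 26717 genes.

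Markers of other cell types moved with the same groups. All 7 goblet markers were detected. Their sum was 754, 1341 and 10645 CPM in replicates 1, 2 and 3 of SI centre and lay between 32503 and 51652 CPM in SI row>3 libraries, and between 7435 and 12129 CPM in LI centre and 16160 and 25209 CPM in LI row>3 libraries. The sum of 6 absorptive markers lay between 40.7 and 169 CPM in SI centre and 492 and 2792 CPM in SI row>3 libraries, with replicate 3 the highest at both levels, and in LI it was 202 to 308 CPM in centre and 936 to 1530 CPM in row>3 libraries. The sum of 5 stem cell markers, Lgr5 included, lay between 1423 and 5159 CPM in SI centre and 57.8 and 623 CPM in SI row>3 libraries, with replicate 3 the lowest at both. In LI it lay between 367 and 411 CPM in centre and 80.8 and 116 CPM in row>3 libraries. Olfm4 made up most of the sum in SI centre, at a mean of 2890 CPM against 1.77 CPM in LI centre. Lgr5, Smoc2 and Axin2 averaged 193, 211 and 536 CPM in SI centre against 119, 89.7 and 158 CPM in LI centre. Ascl2 was close to equal in centre cells of the sites. The 5 Paneth markers summed to at least 212 CPM in every SI library and at most 12.5 CPM in LI. Their part in the changes of the 7 genes was not tested. The 4 stromal markers summed to at most 9.14 CPM and the 5 immune markers to at most 77.6 CPM in any library. Tuft markers reached at most 891 CPM and enteroendocrine markers at most 488 CPM, and the 4 epithelial markers at least 2408 CPM in every library.

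The rest of the secretory machinery was followed in 6 lists with 83 tested genes, chosen for their known roles. In SI row>3 against centre 22 of these genes rose and 4 fell, with a median log2 fold change of 0.42 against 0 over all genes tested, of which 13.2% were called. There were 33 that rose and 4 that fell without SI replicate 3, where 17.1% of all genes were called. The 18 genes that are named from these lists and were called in SI row>3 against centre were called in the same direction without SI replicate 3, with edgeR adjusted p of at most 0.0301. They were named for their calls, and both fits share all other libraries. The second fit thus shows only that these calls do not rest on SI replicate 3, and is no independent test. In LI row>3 against centre edgeR called 0 of the 83, and 6 rose and 2 fell when SI replicate 3 was left out (1.9% of all genes).

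Of the list of chloride loading and the basolateral sodium pump 2 of 9 genes fell in SI row>3 against centre and none rose, with and without SI replicate 3. Slc12a2, the cotransporter NKCC1 that brings chloride into the cell, fell by 1.57 (SE 0.32, edgeR adjusted p = 0.00477) from 1487 to 499 CPM. Stk39, the kinase that activates it, fell by 0.64 (SE 0.15, edgeR adjusted p = 0.00633).

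Of 11 partners of Cftr at the apical membrane 6 rose in SI row>3 against centre and none fell, and 7 rose without SI replicate 3. Among them were the scaffold genes Slc9a3r1 (1.45, SE 0.22, edgeR adjusted p = 0.000157), Slc9a3r2 (1.82, SE 0.41, edgeR adjusted p = 0.00429) and Pdzk1 (2.14, SE 0.67, edgeR adjusted p = 0.0343), and the membrane linker Ezr (1.02, SE 0.18, edgeR adjusted p = 0.000716). These genes rose where Cftr itself fell. Pdzk1 was higher in SI than in LI at all 3 levels, with 4.52, 16.5 and 19.9 CPM in SI and at most 0.0812 CPM in LI.

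Of 20 receptor and second messenger genes 7 rose in SI row>3 against centre and none fell, and 8 rose without SI replicate 3. P2ry4, a nucleotide receptor, rose from 0.683 to 44.9 CPM, by 6.07 (SE 0.70, edgeR adjusted p = 6.57e-05, and 7.54 without SI replicate 3), and was higher in SI than in LI row>3 cells by 4.05 (SE 0.60). Guca2b, the hormone uroguanylin, which opens Cftr through cGMP, rose by 1.56 (SE 0.39, edgeR adjusted p = 0.00939), and Chrm1, a muscarinic receptor, by 2.38 (SE 0.38, edgeR adjusted p = 0.000246). Plcb3, a phospholipase of calcium signalling, was higher in SI than in LI border cells by 0.72 (SE 0.18, edgeR adjusted p = 0.0404).

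Of 12 genes of bicarbonate and anion exchange 3 rose in SI row>3 against centre, and 9 did without SI replicate 3. Between the sites 0 of these genes were called lower in SI with all libraries, and 7, 7 and 6 were called lower in centre, border and row>3 cells without SI replicate 3, where 10.9%, 8.11% and 12.2% of all genes were called in either direction. Another 2 were called higher in SI row>3 cells, with and without SI replicate 3. Slc9a3, the sodium and proton exchanger of salt absorption, rose by 3.82 (SE 0.66, edgeR adjusted p = 0.000558), and Slc26a6, an anion exchanger, by 3.42 (SE 0.64, edgeR adjusted p = 0.00197). The list thus holds a gene of absorption among those called. Slc9a3 and Slc26a6 were also called higher in SI than in LI border cells, and neither was without SI replicate 3 (edgeR adjusted p = 0.279 and 0.227).

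Of 16 other chloride channel genes 2 rose and 1 fell in SI row>3 against centre, and 4 rose and 1 fell without SI replicate 3. Ano7, a relative of Ano1, rose by 3.21 (SE 0.60, edgeR adjusted p = 0.00326, and 4.54 without SI replicate 3) and Clic5 by 2.63 (SE 0.63, edgeR adjusted p = 0.0144), while Clca1, a secreted protein of goblet cells that regulates chloride conductance, fell by 2.04 (SE 0.37, edgeR adjusted p = 0.001). Clca1 is 1 of the 7 goblet markers, whose sum was higher in row>3 than in centre cells. Ano6, a scramblase of the same family, was higher in SI than in LI at all 3 levels, by 0.80, 1.20 and 1.87 from centre to row>3 (SE 0.21 in each).

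Of 15 other epithelial potassium channel genes 4 rose and 1 fell in SI row>3 against centre, and 5 rose and 1 fell without SI replicate 3. Kcnk6, a leak channel, rose by 3.41 (SE 0.62, edgeR adjusted p = 0.00259, and 4.99 without SI replicate 3), and Lrrc26, a subunit of the large-conductance calcium-activated channel of goblet cells, by 2.91 (SE 0.59, edgeR adjusted p = 0.00431, and 4.46 without SI replicate 3). Kcnj16 was at 0.09, 4.51 and 1.85 CPM in SI, and had 0 counts in all 9 LI libraries, which allows up to 3 counts in each. Kcnmb4 had 0 counts in SI centre cells and at most 1.35 CPM on average in any group.

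**Figure D5:**
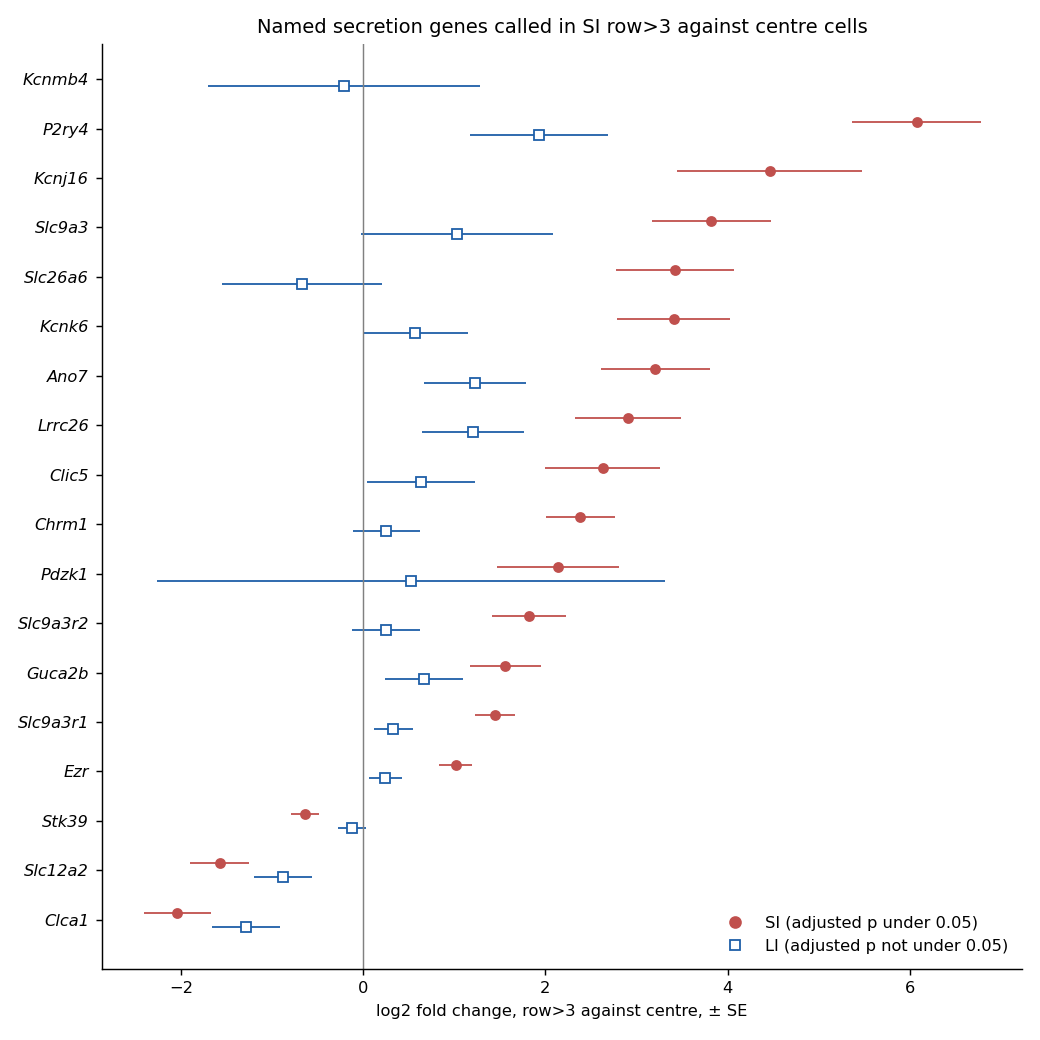
Log2 fold change of row>3 against centre cells (horizontal axis, error bars 1 SE) in SI (red circles) and LI (blue open squares) for the genes named in the text from the 6 lists that were called in SI. Slc12a2, Stk39 and Clca1 lie left of 0 in SI and the others right of it, and no point is drawn where a group has no counts (Kcnmb4 in SI, Kcnj16 in LI).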

How the data were processed

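RNA was measured in 18 libraries of sorted crypt cells, grouped by the labels into 2 sites and 3 levels of Lgr5-GFP with 3 replicates each. Each came from 270 pg of RNA or more, and a SMART-Seq kit that keeps the strand was used. After trimming, the authors mapped reads to mm10 and took gene counts from STAR. They deposited these raw counts (unit: count). A second deposited table holds these counts divided by 1 size factor per library (unit: signal), which equals the median-of-ratios factor of DESeq2. Which annotation and which strand setting served for counting is not stated in the labels or methods, so reads of overlapping genes on opposite strands may not be told apart. Positions and exon lengths came from GENCODE M21 (GRCm38, the same build as mm10), which held 42462 of the 43346 gene identifiers.

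The 7 genes and the 6 lists were chosen with earlier results of these data known. Raw counts were tested with edgeR 4.0.16 in R 4.3.3 (TMM factors, mean count above 0, glmQLFit with its robust option and without its legacy method) in 1 fit of 6 groups. Calls required an adjusted p under 0.05 (Benjamini-Hochberg over 26717 genes). All members are given in every library, with statistics where they were called and for row>3 against centre and for SI against LI in centre cells. Of each list up to 4 genes called in the most comparisons are named, and a result that is not reported here was left out. Likeness was computed for members whose group means span at least 2 log2 units.

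Alternatives were DESeq2 1.42.0, RLE factors or library size in place of TMM, filterByExpr or no filter, the compared groups alone, a replicate block within site or over all libraries, SI replicate 3 left out, each library left out and, added after the data were seen, the legacy fit and group means without SI replicate 3. The edgeR fit without a block was run on simulated counts for SI row>3 against centre alone. The simulated libraries were independent, so this run cannot show how the fit behaves with correlated replicates or with SI replicate 3. Deviations from the group means correlated between same-numbered libraries of a site at 0.358 to 0.783 over 18 pairs and 10223 genes, so numbers were treated as pairs within a site. Across sites at the same level the range was -0.0296 to 0.332, with all 3 pairs over 0.1 in border cells alone. Figures were drawn with matplotlib.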

Additional observations from a re-analysis of the deposited data

How the results depend on the processing

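Members called by edgeR changed with the setting as follows. With the replicate block within site, 1 was called in place of 0 in SI border against centre, 7 in place of 4 in SI row>3 against centre, 3 in place of 0 in LI row>3 against centre, 1 in place of 0 in LI row>3 against border and 3 in place of 0 in the difference between sites in row>3 against centre. With the replicate block over all libraries, 3 were called in place of 0 in centre SI against LI (5.61% of all genes, against 1.99%). Whether equal numbers stand for the same mouse in both sites is not stated in the labels or methods. Without the SI replicate 3 libraries the counts were 3 in LI row>3 against centre, 1 in LI row>3 against border, 3 in centre and 4 in border SI against LI, and 4 in the difference in row>3 against centre. With the groups compared only they were 0 in SI row>3 against border, 2 in LI row>3 against centre and 1 in border SI against LI. In these fits 0 of 22948, 243 of 23630 and 269 of 22991 tested genes were called. DESeq2 called 2 in LI row>3 against centre, 1 in centre SI against LI and 1 in the difference in row>3 against centre. In SI row>3 against centre DESeq2 called 6 in place of 4, beside 4241 of 16262 genes. With filterByExpr it was also 6, beside 4126 of 15998 genes. The paired fits changed no other count by more than 1.5 times.

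Leaving out each library in turn gave 0 to 1 called members in SI border against centre, 3 to 6 in SI row>3 against centre, 0 to 3 in SI row>3 against border, 0 to 1 in centre, 0 to 2 in border and 2 to 3 in row>3 SI against LI, and 0 in the other 6 comparisons. Called genes among all tested moved as well. They ranged from 0 to 319, 1971 to 3780 and 3 to 1522 in these 3 SI comparisons. Between the sites they ranged from 180 to 1230 in centre, 134 to 863 in border and 379 to 1686 in row>3 cells. The other 6 comparisons had 0 to 231. Best2 in SI row>3 against centre was -0.21 without the SI replicate 3 libraries, where each group holds 3 counts and the sign carries no information, and ranged from -4.31 to 5.33 with single libraries left out. Kcnn4 in centre SI against LI was -0.10 without the SI replicate 3 libraries and ranged from -0.12 to 0.11. The cause of these changes was not tested. Library size in place of TMM factors shifted the median of well-counted genes by -0.19 log2 units in SI and -0.12 in LI row>3 against centre and reversed no member. At 8312093 counts or more per library, Best2 in SI replicates 1 and 2, with 6 counts in all, was the member limited by depth.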
